A study of Mus musculus with 12 samples.

Results

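IGKV6-15 and IGKV8-27 are 2 variable gene segments of the mouse immunoglobulin kappa light chain. Each gave a rearranged light chain with its highest share in 1 line of a mouse myeloma model, 18.8% of counts for IGKV6-15 and 1.48% for IGKV8-27. They were chosen from the light chain clone tables as every clonotype whose first listed V gene was one of the 2, so their levels in the light chain libraries are a description and carry no test. A clonotype is a V gene, a J gene and the base sequence of the third complementarity determining region (CDR3). The 6 light chain libraries held 26 V genes in 55 clonotype entries, which were 40 distinct clonotypes. IGKV6-15 and IGKV8-27 accounted for 6 of the entries, 3 of the distinct clonotypes and 448 of 9770 counts. The same CDR3s were then looked for in the aligned sequence tables of the heavy chain libraries, which the choice of the genes from clone tables did not use, although earlier results from them were known.

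The cells were CD138+B220- myeloma (MM) cells from bone marrow (BM). All 6 lines had the VQ genotype, which combines Vκ*MYC (a MYC transgene with kappa light chain control elements), NrasLSL Q61R/+ (1 Nras allele that makes the activated protein once a stop cassette is removed) and IgG1-Cre (a recombinase expressed with the IgG1 constant region). No line without these alleles and no normal plasma cells were analysed here, and strain and age are not used here. The 4 lines VQ-D1, VQ-D2, VQ-D4 together with VQ-D5 were primary donor cells. The cell lines 4935 and 4938 came from mice that had received VQ-D2 cells. Each line had 1 heavy chain and 1 light chain library made from total RNA, so there were no replicates within a line. Intervals below are exact 95% Clopper-Pearson intervals and cover counting error only, because amplified copies are not independent molecules. Among the primary lines the light chain library of VQ-D1 was the deepest with 3584 counts, followed by VQ-D5 with 2223, VQ-D2 with 1748 and VQ-D4 with 1618. The derived lines were shallow, with 385 counts for 4935 and 212 for 4938.

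A developing B cell joins 1 kappa V segment to 1 J segment, and the joined exon is then spliced to the kappa constant region. The bases around the joint form the CDR3, which contacts antigen together with the CDR3 of the heavy chain. A plasma cell tumour descends from 1 B cell, so its cells share a V-J joint, and that joint serves as a mark of the clone. In mouse kappa genes the enzyme that adds untemplated bases acts little, so joints with the same V and J can be alike in unrelated B cells.

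In the mm10 build, with positions taken from RefSeq (assembly GRCm38), Igkv6-15 is a V segment at chr6:70406469-70406992 and Igkv8-27 a V segment at chr6:70171809-70172270. The J segments they were joined to are Igkj2 at chr6:70722916-70722954 and Igkj1 at chr6:70722562-70722599. Igkc, the constant region, lies at chr6:70726435-70726754. Igkv3-12 and Igkv15-103, whose rearrangements were found in all 6 light chain libraries and serve as the comparison, are at chr6:70518250-70518849 and chr6:68437468-68437925.

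The CDR3s are shown first because every later match rests on them. They run from the conserved cysteine codon to the conserved phenylalanine codon, and capitals mark the bases assigned to J. The fourth line is a minor IGKV3-12 clonotype of VQ-D5 whose end resembles the leading IGKV6-15 CDR3, and the last 2 lines are the comparison kappas.
IGKV6-15/IGKJ2, leading: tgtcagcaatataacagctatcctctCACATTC
IGKV6-15/IGKJ2, second: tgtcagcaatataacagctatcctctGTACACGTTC
IGKV8-27/IGKJ1: tgtcatcaatacctctcctcgTGGACGTTC
IGKV3-12/IGKJ2, minor: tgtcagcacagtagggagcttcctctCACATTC
IGKV3-12/IGKJ5: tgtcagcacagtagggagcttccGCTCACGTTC
IGKV15-103/IGKJ1: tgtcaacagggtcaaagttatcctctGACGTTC

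The longer sequences come from the heavy chain aligned tables and show the V bases before each CDR3, with the CDR3 in capitals. The IGKV6-15 sequence is the last 300 bases up to the end of J, with the commonest base at each position over 9 sequences of VQ-D5, and the IGKV8-27 sequence is the stretch before the CDR3 in the 1 sequence of VQ-D4 that held it.
IGKV6-15, VQ-D5: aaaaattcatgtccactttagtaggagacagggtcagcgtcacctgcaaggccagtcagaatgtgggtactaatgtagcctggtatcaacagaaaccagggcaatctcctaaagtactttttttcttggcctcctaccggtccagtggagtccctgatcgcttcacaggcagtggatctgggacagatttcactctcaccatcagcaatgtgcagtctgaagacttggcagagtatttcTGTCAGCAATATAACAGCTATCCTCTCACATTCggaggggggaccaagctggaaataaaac
IGKV8-27, VQ-D4: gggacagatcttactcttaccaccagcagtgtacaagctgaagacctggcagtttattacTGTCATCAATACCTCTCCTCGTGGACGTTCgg

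IGKV6-15 was abundant in VQ-D5 and rare or at 0 elsewhere. Its leading clonotype, translated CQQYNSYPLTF, had 418 counts in VQ-D5, which was 18.8% of the library (interval 17.2% to 20.5%). It had 3 counts in VQ-D1 (0.0837%, interval 0.0173% to 0.244%) and 1 count in VQ-D2 (0.0572%, interval 0.00145% to 0.318%). No count was found in VQ-D4, 4935 or 4938, where 0 counts leave room for shares of up to 0.185%, 0.779% and 1.42%. The VQ-D5 share was thus 225 times that of VQ-D1, with a counting interval of 76.3 to 1094 that reflects the 3 counts of VQ-D1. The VQ-D5 interval does not overlap that of any other line, but the gene was chosen for this share, so the gap adds no support. In these libraries from many cells, a share from fewer cells cannot be told apart from one with less RNA per cell.

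IGKV8-27 had its highest share in VQ-D4, at a lower level. Its single clonotype, translated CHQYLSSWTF, had 24 counts there, or 1.48% (interval 0.953% to 2.20%). VQ-D2 had 1 count (0.0572%, interval 0.00145% to 0.318%). The other libraries were at 0, with a limit of 0.0837% for VQ-D1, 0.135% for VQ-D5, and the limits given above for 4935 and 4938. The VQ-D4 share was 25.9 times that of VQ-D2, with a counting interval of 4.23 to 1066. The VQ-D4 interval lies above that of every other primary line, while its lower bound is reached by the exact upper bounds of the shallow libraries 4935 (0.954%) and 4938 (1.72%). Here too the gene was chosen for its share, so the gap adds no support.

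Neither kappa was the largest of its line. IGKV3-12/IGKJ5 held 73.5% of VQ-D5 and 94.7% of VQ-D4, and IGKV15-103/IGKJ1 held 4.95% and 3.83%. These 2 rearrangements were found in all 6 light chain libraries. IGKV3-12/IGKJ5 ranged from 1.65% in VQ-D1 to 98.7% in VQ-D2, and IGKV15-103/IGKJ1 from 0.686% in VQ-D2 to 98.1% in VQ-D1. In the derived lines 4935 and 4938 the IGKV3-12 share was 18.2% and 75% and the IGKV15-103 share 81.6% and 25%. IGKV6-15 and IGKV8-27 differed from them in that neither was seen in more than 3 libraries.

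**Figure D1:**
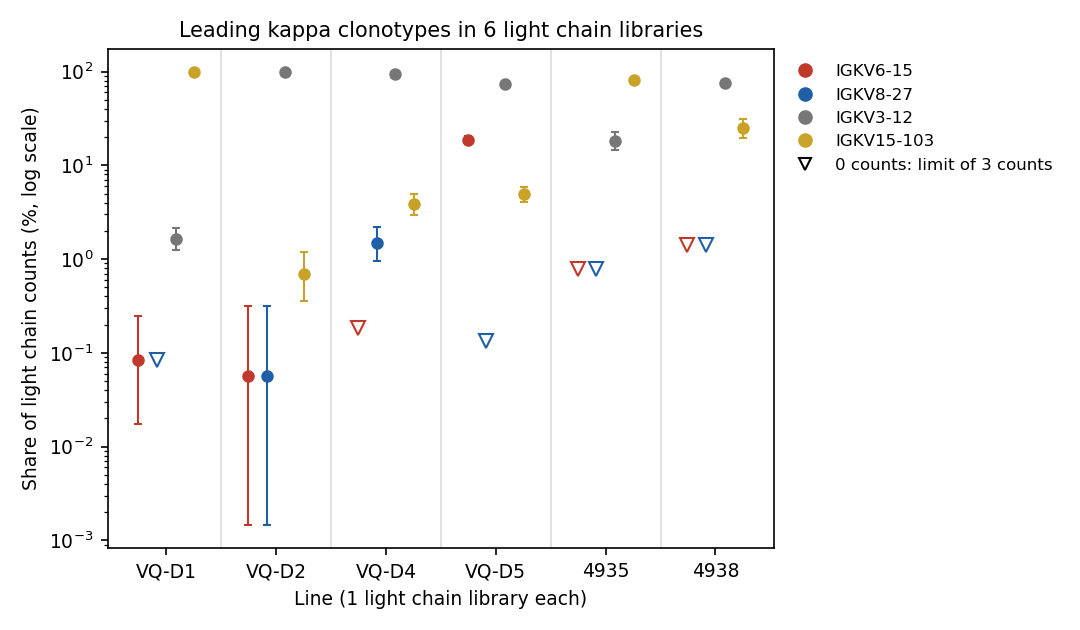
Share of light chain counts (percent, log scale) of the leading clonotype of 4 kappa V genes in each of 6 light chain libraries; bars are exact 95% intervals and open triangles mark 0 counts, drawn at the limit of 3 counts. IGKV6-15 stands at 18.8% in VQ-D5 and IGKV8-27 at 1.48% in VQ-D4, while IGKV3-12 and IGKV15-103 have counts in all 6 libraries.

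Once the 2 rearrangements found in all 6 libraries were left out, each kappa was the main clonotype left in its line, which follows from the choice of the genes. In VQ-D5, IGKV6-15 made up 418 of the 478 counts that remained (87.4%, interval 84.1% to 90.3%), with 24 clonotypes in that remainder. In VQ-D4, IGKV8-27 was the only clonotype that remained, with 24 of 24 counts (100%, interval 85.8% to 100%). In VQ-D1, IGKV6-15 was also the largest clonotype that remained, with 3 of 8 counts, and in VQ-D2 it made up 2 of 11 and IGKV8-27 made up 1 of 11. The derived lines had almost no remainder, 1 count in 4935 and none in 4938.

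The clonotypes most like IGKV6-15 across lines were sought as those with their highest count in VQ-D5 and presence in at most 1 other library, and 22 met this. The leading IGKV6-15 clonotype itself, with counts in VQ-D1 and VQ-D2 too, was seen more widely than that. The 3 with most counts were all IGKV12-46/IGKJ1, translated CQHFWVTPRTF with 17 counts, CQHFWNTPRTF with 6 and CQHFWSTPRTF with 5. The first of these had far fewer counts than the 418 of IGKV6-15. No other clonotype met the same rule with VQ-D4 as the highest line. By first listed V gene, the related V genes were nearly unseen. A clonotype was found for 1 of 8 other listed IGKV6 genes (IGKV6-17, 1 count in VQ-D2). For IGKV8 it was 1 of 9 other listed genes (IGKV8-19, 1 count in VQ-D2). Counts this low were common among the 26 V genes found in the light chain libraries.

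The joints of both kappas were in frame and without added bases. The leading IGKV6-15 CDR3 had 33 bases and 11 residues. Its first 26 bases came from an untrimmed V segment, the J segment IGKJ2 began at base 27 with 4 bases trimmed, and no base lay between them. The IGKV8-27 CDR3 had 30 bases and 10 residues, with neither V nor IGKJ1 trimmed and 1 base that either segment could have given. Among all 40 distinct clonotypes, 39 were in frame, 36 had no untemplated base, 8 had an untrimmed V and 22 an untrimmed J. A length of 11 residues was the commonest, in 32 of 40, while 5 had 10 and 3 had 12. Frame and lack of untemplated bases therefore do not set the 2 kappas apart. An untrimmed V (8 of 40) and, for IGKV8-27, a length of 10 residues (5 of 40) were less common. The 8 include the 3 clonotypes of these 2 genes and also the comparison kappa IGKV15-103/IGKJ1, and the 5 include IGKV8-27 itself. An untrimmed V thus does not set the 2 kappas apart from IGKV15-103/IGKJ1.

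J use differed between them. IGKJ2, used by IGKV6-15, was found in 8 clonotypes with 430 counts in all 6 libraries, so the 418 counts of VQ-D5 were most of its use. IGKJ1, used by IGKV8-27, was in 17 clonotypes with 4141 counts. IGKJ5 had 7 clonotypes with 5186 counts and IGKJ4 had 8 with 13 counts.

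The leading IGKV6-15 CDR3 carried 1 base that differed from the deposited J reference. Counted from 1 at the first CDR3 base, the change was G30A. It was present in the entries of all 3 lines with this clonotype, and the quality at that base was 40 for VQ-D5 and VQ-D1 and 39 for VQ-D2. The deposited J alignment scores were 320.6 in VQ-D5 and 321 in both other lines. The second IGKV6-15 clonotype, translated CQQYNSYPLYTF, used an untrimmed IGKJ2 with no difference within the CDR3 and scored 390. No V difference was reported within either IGKV6-15 CDR3, and the only J mismatch listed for IGKV8-27 lay outside the J coding bases. Over the 40 distinct clonotypes, 5 had a difference in the J coding bases within the CDR3. Among the same 40, 2 had A as the fourth base from the CDR3 end while 35 had G. The J bases after the CDR3 were not compared with a reference, so differences there are not counted.

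Few CDR3 variants were found. The second IGKV6-15 clonotype had 1 count, in VQ-D2, and had IGKV6-23 as an equally placed second V assignment. It differed from the leading CDR3 by 4 edits (base changes, insertions or deletions). Of the 39 other distinct clonotypes, 0 were within 2 edits of the leading IGKV6-15 CDR3 and 0 within 2 edits of the IGKV8-27 CDR3. The nearest to IGKV8-27 was an IGKV1-110/IGKJ1 clonotype at 9 edits. IGKV8-27 had no second clonotype in any library.

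A minor VQ-D5 clonotype shared its end with IGKV6-15. This was the IGKV3-12/IGKJ2 clonotype printed above, with 2 counts (0.0900%, interval 0.0109% to 0.325%). Its first 23 bases were those of IGKV3-12/IGKJ5, and its last 13 bases were those of the leading IGKV6-15 CDR3, G30A included. The next longest end shared with the leading IGKV6-15 CDR3 was 3 bases. Set against IGKV3-12/IGKJ5 it differed at 2 bases, G24T and G30A, and these had the lowest quality of its CDR3, 18 at each against 31 or more elsewhere. Whether it came from a separate cell, a joint product of both templates or base errors was not tested.

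Base quality was high in the lines where each kappa had its highest share. In VQ-D5 all 33 bases of the leading IGKV6-15 CDR3 had the quality 40. In VQ-D4 the lowest quality in the IGKV8-27 CDR3 was 39, at 2 bases. The rare copies were slightly lower: IGKV6-15 in VQ-D1 reached 34 at base 14, IGKV6-15 in VQ-D2 reached 38 at base 14, and IGKV8-27 in VQ-D2 reached 34 at 3 bases. The second IGKV6-15 clonotype was at 40 throughout. Over the 49 other clonotype entries the lowest quality per CDR3 ranged from 18 to 40 with a median of 40, and among the 25 others of VQ-D5 the median was 39. The 34 of IGKV6-15 in VQ-D1 was below all 7 other entries of that library, which were at 40. In VQ-D2 the other 10 entries ranged from 26 to 40, so the rare copies there lay within the range of their library.

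**Figure D2:**
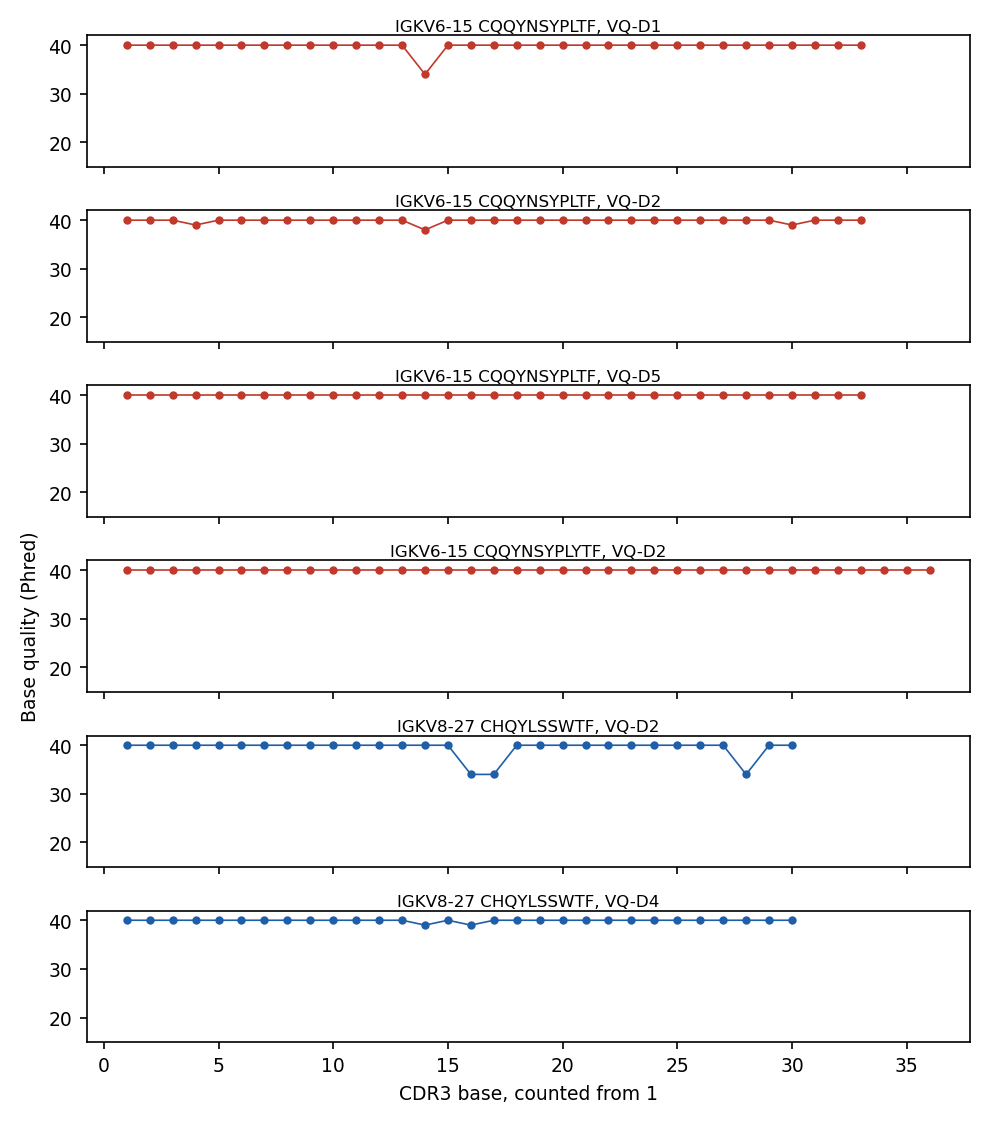
Phred base quality at each CDR3 base, counted from 1, for the 6 clonotype entries of IGKV6-15 (red) and IGKV8-27 (blue). Lowest values are 34 in the VQ-D1 entry of IGKV6-15 and the VQ-D2 entry of IGKV8-27, and the VQ-D5 entry of IGKV6-15 is at 40 at every base.

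The heavy chain libraries also held some kappa sequences, and each kappa was seen there in its own line alone, though most other tables were too shallow to show a share as low as that of IGKV6-15. These tables have 1 row per molecular identifier group, the reads that share 1 tag. In VQ-D5, 9 of 23019 rows held the whole leading IGKV6-15 CDR3 (0.0391%, interval 0.0179% to 0.0742%), in 8 distinct sequences and all in the forward direction. In VQ-D4, 1 of 342 rows held the whole IGKV8-27 CDR3 (0.292%, interval 0.00740% to 1.62%). Neither CDR3 was found in the heavy chain table of any other line, also with 2 mismatches allowed or with 6 bases left off each end. The limit for 0 rows was 0.0326% for VQ-D1, 0.0110% for VQ-D2, 1.02% for 4935 and 0.363% for 4938. It was 0.877% for IGKV6-15 in the small table of VQ-D4, and 0.0130% for IGKV8-27 in that of VQ-D5.

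Many VQ-D4 rows held IGKV8-27 V bases but no CDR3. With rows counted by at least 100 shared runs of 25 bases with the V bases of the matched rows, a measure added after the data were seen, VQ-D4 had 35 rows (10.2% of its table, interval 7.23% to 13.9%), in 30 distinct sequences. VQ-D5 had 12 IGKV6-15 rows by the same measure (0.0521% of its table). Again neither was found in another line. Of the 35 VQ-D4 rows, 34 came no closer than 10 edits to the CDR3, and the V bases stopped 12 to 44 bases before it, with a median of 20. In 21 of the 35 rows kappa constant bases were present on the opposite strand to the V bases. The J bases before the constant region in 16 of those 21 rows, printed here beside those after the other kappas, differed from the ones that followed IGKV6-15.
J bases in IGKV8-27 rows, VQ-D4: ggtggaggcaccaagctggaaatcaaac
J bases after IGKV6-15, VQ-D5: ggaggggggaccaagctggaaataaaac
J bases after IGKV3-12, VQ-D2: ggtgctgggaccaagctggagctgaaac
J bases after IGKV15-103, VQ-D1: ggtggaggcacccgggtggatatcaaac

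The 1 VQ-D4 row with the CDR3 differed from most others in its V bases. It was among the 21 rows with constant bases on the opposite strand, and it ended 2 bases after the CDR3. Compared with it, 33 of the other rows had 50 more bases in the V segment at 1 place. Read in the frame of its CDR3, the row held 3 stop codons, all in the V bases before that place. Because 50 is not a multiple of 3, the V bases before that place are read out of frame with those after it. The stop codons thus do not show whether the V segment with the 50 bases could be read through. The link between V and CDR3 in the heavy chain table rests on this 1 row. In the light chain clone table the link rests on 24 counts.

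**Figure D3:**
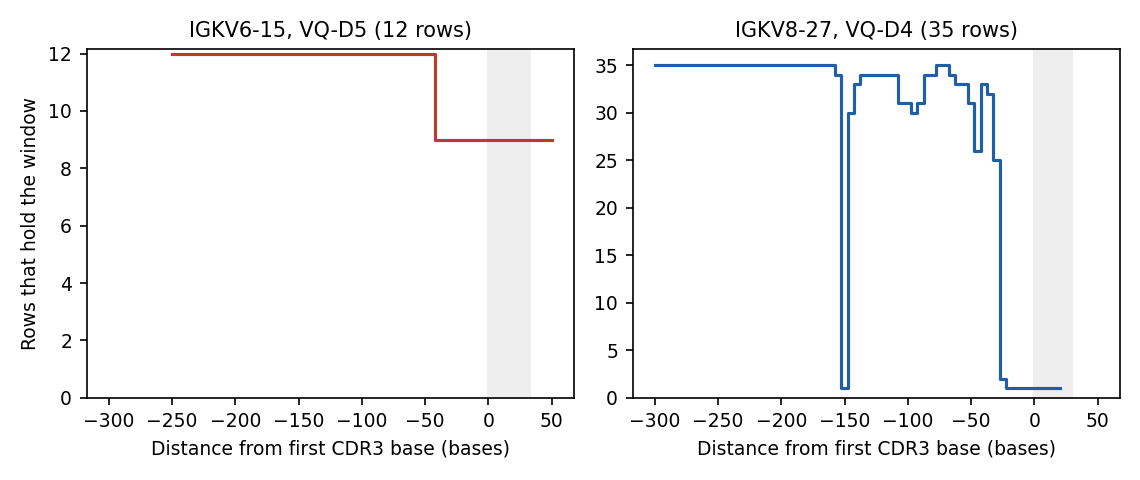
Number of heavy chain table rows that hold each window of 20 bases with at most 2 edits, against the distance of the window's middle from the first CDR3 base, for 12 IGKV6-15 rows of VQ-D5 and 35 IGKV8-27 rows of VQ-D4; the CDR3 is shaded. The CDR3 is held by 9 of 12 rows for IGKV6-15 and 1 of 35 for IGKV8-27, whose narrow dip within V is where other rows have 50 more bases.

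The 9 IGKV6-15 rows of VQ-D5 were nearly identical. Over 372 bases, 364 were the same in all 9 rows. All 8 variable bases lay before the CDR3, 4 of them in the first 20 bases, and 5 were seen in a single row. Rows differed from the commonest sequence at a median of 2 bases (range 0 to 3). None of the 9 held a stop codon between its first base and the end of J. The J bases after the CDR3 were the same in all 9 and differed from those after IGKV3-12 at several positions outside the CDR3. The other 3 IGKV6-15 rows lacked the CDR3 and were 453 to 563 bases long.

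The deposited V calls of these rows name heavy chain genes and say nothing on the kappa V segment. The IGKV6-15 rows were called IGHV11-1 at 76.190% identity over 42 bases and the IGKV8-27 row IGHV2-2 at 75.676% over 37 bases. Rows labelled as kappa locus were 186 in VQ-D5 and 50 in VQ-D4, and 35 of the latter were the IGKV8-27 rows. Such labels were also frequent where almost no kappa sequence matched, with 1987 rows in VQ-D1, so they were not used as a count of kappa sequences. How far each V segment differs from its germline gene was not analysed here.

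The mix of kappas differed between the 2 kinds of library of a line. Among the 4 kappas, IGKV6-15 made up 19.3% of light chain counts in VQ-D5 (418 of 2163, interval 17.7% to 21.1%). In the heavy chain table of that line it made up 9 of 10 rows matched by CDR3 (90%, interval 55.5% to 99.7%) and 12 of 13 matched by V bases (92.3%, interval 64.0% to 99.8%), the other row being IGKV3-12 in both. Most of the 186 rows of that table labelled as kappa locus matched none of the 4 kappas and are not in these shares. IGKV8-27 made up 1.48% of light chain counts in VQ-D4 (24 of 1618). In the heavy chain table of VQ-D4 it made up the 1 row matched by CDR3 (1 of 1, interval 2.5% to 100%) and 35 of 35 rows matched by V bases (100%, lower bound 90%), of which 34 lacked the CDR3, with 0 rows of IGKV3-12 or IGKV15-103. The intervals do not overlap between library types for IGKV6-15 or for IGKV8-27 by V bases. The kappas were chosen with earlier results of these data known, so this gap adds no support. For IGKV8-27 by V bases the measures also differ, because light chain counts are of clonotypes with a CDR3 and 34 of the 35 rows lacked it. For IGKV8-27 by CDR3 a single row is too few for a comparison. All these intervals compare single libraries, and the groups of rows are small.

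**Figure D4:**
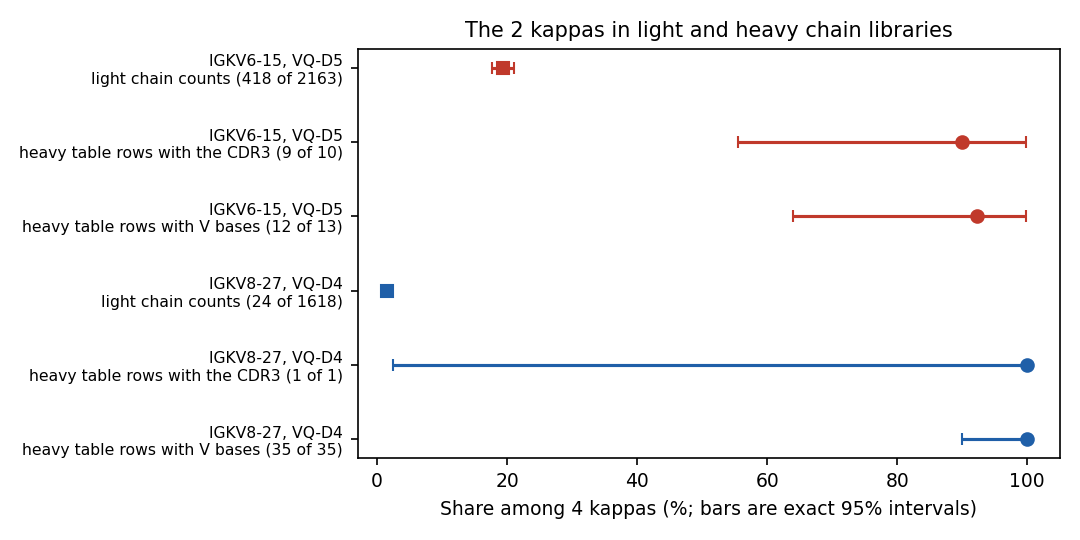
Share (percent) of IGKV6-15 in VQ-D5 and of IGKV8-27 in VQ-D4 among 4 kappas, from light chain counts (squares) and from heavy chain table rows matched by CDR3 or V bases (circles), with exact 95% intervals. Both shares are higher in the heavy chain tables, 90% against 19.3% for IGKV6-15 and 100% of 35 rows against 1.48% for IGKV8-27. Of those 35 rows, matched by V bases, 34 lacked the CDR3.

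In VQ-D1 and VQ-D2 the few matched rows of the heavy chain table were of the kappa that dominated light chain counts, unlike in VQ-D4 and VQ-D5. In VQ-D2 the only matched row was IGKV3-12, which held 98.7% of light chain counts, and in VQ-D1 both matched rows were IGKV15-103, which held 98.1%. The heavy chain tables of 4935 and 4938 held none of the 4 kappas.

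Whether each is the private kappa of its clone can be described only by line. The heavy chain clone of VQ-D5 was IGHV3-8/IGHJ1 with 2171 of 2181 heavy chain counts (99.5%, interval 99.2% to 99.8%), and that of VQ-D4 was IGHV7-3/IGHJ4 with 1277 of 1277. The light chain shares of IGKV6-15 and IGKV8-27 in these lines are what they were chosen for and say nothing further on this. In the heavy chain tables each was found in its own line alone, but for IGKV6-15 the VQ-D5 share of 0.0391% was below the limit for 0 rows in VQ-D4, 4935 and 4938, and its interval reached below that in VQ-D1. Of the other lines, only VQ-D2 had a limit (0.0110%) below the lower bound of the VQ-D5 interval (0.0179%). For IGKV8-27 matched by CDR3, 1 row is too few to separate VQ-D4 from any line by its interval. IGKV3-12/IGKJ5 held most light chain counts in both lines, and a few copies were found elsewhere, IGKV6-15 in VQ-D1 (3 counts) and both kappas in VQ-D2. These libraries came from RNA of many cells, so which kappa was made in the same cell as the heavy chain was not measured.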

How the data were processed

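For each of 6 lines, total RNA was made into tagged (molecular identifier) libraries of both chains, per the labels' protocols. The deposited clone tables give a whole-number count and a fraction per clonotype and a lowest CDR3 base quality score, in the column layout of MiXCR exports, per the file headers. The deposited heavy chain tables have AIRR columns, with V identity in percent, per the file headers. The submitters' processing notes name mm10 as the build. Program versions, filters and what 1 count stands for (reads or tagged molecules) are not stated in these sources. Skipped clone numbers (3 in VQ-D1, 3 in VQ-D2 and 1 in VQ-D5 light chain tables) were not analysed here.

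Shares were counts over library totals, with exact 95% intervals and a limit of 3 counts for 0. CDR3s were matched exactly on both strands; edits were computed with edlib 1.3.9.post1. Matching was tested on simulated data. Python 3.11.15, pandas 2.3.3, numpy 2.4.6 and scipy 1.17.1 were used. Gene positions came from RefSeq, with 8 of 8 genes matched. No test between lines was run, apart from the outlier criterion given under the flagged results. The text names both genes, IGKV3-12 and IGKV15-103, listed IGKV6 and IGKV8 genes, and at most 3 clonotypes of like line pattern per gene. The members and lists were chosen with earlier results of these data known. The IGKV3-12/IGKJ2 clonotype and the V base matching were chosen after their values were seen.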

Additional observations from a re-analysis of the deposited data

Results flagged for a closer look

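In 4 values, 1 of the 4 primary lines stood far from the other primary lines by Dixon's criterion. The criterion flags about 1 in 20 groups by chance, a rate that does not hold for genes chosen with these data known. These are the IGKV6-15 share of light chain counts in VQ-D5 (18.8%) and its 9 heavy chain table rows there, and the IGKV8-27 share in VQ-D4 (1.48%) and its 1 heavy chain table row there. Both genes were chosen for these light chain shares, so the criterion adds no support to them, and a single row has no weight of its own. The 9 rows gain no support either, because the criterion was applied to raw row counts. Those came from heavy chain tables of 342 to 27215 rows, with 0 IGKV6-15 rows in every other primary line.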

How the results depend on the processing

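Of 37 alternative values, 27 stayed within the counting interval or within 1.5 times the count. Some of these settings could change little, because no other CDR3 lay within 2 edits of either leading CDR3. Leaving out the 2 rearrangements found in every line moved the IGKV6-15 share to 37.5% in VQ-D1, 18.2% in VQ-D2 and 87.4% in VQ-D5, and the IGKV8-27 share to 9.09% in VQ-D2 and 100% in VQ-D4, since the denominators became small. Requiring at least 2 counts took both IGKV6-15 and IGKV8-27 in VQ-D2 to 0%. Matching VQ-D4 rows of the heavy chain table by V bases gave 35 IGKV8-27 rows at 100 or 50 shared runs of 25 bases and 31 at 150, against 1 by CDR3. These V base settings were added after the data were seen. Assignment by the deposited V call gave no value, because the calls name heavy chain genes. No paired analysis was possible because no result compares groups of samples, and no library could be left out of a value that rests on 1 library. Depth limits the derived lines most, where a light chain count of 0 allows up to 0.779% in 4935 and 1.42% in 4938.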
